A study of Saccharomyces cerevisiae with 3 samples.

Results

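The difference between the heat responses of an hho1 deletion strain and a wild-type strain of the budding yeast Saccharomyces cerevisiae was measured gene by gene. For each gene, the response of the deletion strain (log2 ratio at 37 °C minus log2 ratio at 25 °C) was set against the response of the wild type (log2 ratio at 37 °C over 25 °C). A difference above 0 means a higher response in the deletion strain and a difference below 0 a lower one, whether the gene was induced or repressed by heat. Genes were kept where their net signal, mean spot intensity minus background, was 200 scanner units or more in both channels of all 3 arrays. This left 3510 of 6256 genes, while 2741 were below the minimum in at least 1 channel and 5 had no spot free of outlier flags. The rule uses signal and not the difference itself. The same signals also enter the difference, so membership is not independent of it.

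The groups were the hho1 delta strain at 25 °C, the hho1 delta strain at 37 °C and wild-type cells at 37 °C, with 1 array each, all in rich YPAD medium at an optical density of 0.5. Heat shock was a rapid shift to 37 °C for 15 min, although another field of the labels gives growth at 37 °C. Each array held the sample beside wild-type RNA from 25 °C, the only control, labelled in the other dye. The labels give no strain background and do not say whether the deletion strain was 1 clone. With 1 array per group no test could be run, so every value below describes these arrays, and the SD given with a value is over repeat spots on the array only. Both deletion arrays carried their sample in Cy3, and the wild-type array carried its sample in Cy5. Per the file headers, both deletion arrays also shared 1 slide and 1 scan and the wild-type array lay on another, so strain at 37 °C cannot be told apart from the dye orientation, the slide or the scan.

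Hho1 is the linker histone of budding yeast, a chromatin protein that binds DNA between nucleosomes. A sudden rise in temperature makes yeast induce chaperones through the factor Hsf1 and a general stress programme through Msn2 and Msn4. At the same time it represses the genes of ribosomal proteins and of the machinery that assembles ribosomes. The comparison addresses whether loss of Hho1 alters that response.

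HHO1 itself had a log2 ratio of -4.34 in the deletion strain at 25 °C, -4.26 in the deletion strain at 37 °C and -0.34 in the wild type at 37 °C. Its net signal in the deletion channel was 13 at 25 °C and 11 at 37 °C, against 5473 and 4033 in the wild-type channel of the same arrays. HHO1 is therefore below the signal minimum and is not among the 3510 genes. Over these genes, the median net signal was 824 to 859 in Cy3 and 2038 to 2626 in Cy5. At the minimum, LYS14 (200.1 in its dimmest channel, difference 0.25) and YGL185C (200.2, difference 0.26) were just inside. DIA1 (199.98, difference -0.23) and AEP2 (199.95, difference 0.30) were just outside.

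Both strains had nearly the same heat response. Across the 3510 genes the responses correlated with Pearson's r = 0.977 and Spearman's rho = 0.961, and the slope of the deletion response on the wild-type response was 0.967. These are descriptions across genes, which share the arrays and are not independent replicates. The SD of the response over genes was 1.20 in the deletion strain and 1.21 in wild-type cells. The difference had a median of 0.03, an SD of 0.26 and a range from -1.71 to 0.86, and 94.3% of the genes lay within 0.5 of 0. It lay above 0 for 1954 of the 3510 genes (55.7%), the share to set beside the counts above 0 given below. For scale, the wild-type 25 °C reference, read in Cy5 on both deletion arrays, differed between them with an SD of 0.216. In that comparison of single channels, which holds no strain difference, 67 genes were higher and 2 lower by 0.58 on the array of the 37 °C sample, by their mean over spots, and 3 were higher and 0 lower by 1. Repeat spots of a gene differed with a root mean square SD of 0.054. No gene had responses of opposite sign and 0.58 or more in size in both strains. At 0.3 there were 3, MRP10, ATP19 and GTT2. When each response was taken within 1 dye, GTT2 had -0.29 in wild-type cells and -0.19 in the deletion strain, MRP10 had 0.002 and -0.30, and ATP19 had 0.18 and -0.55.

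**Figure D1:**
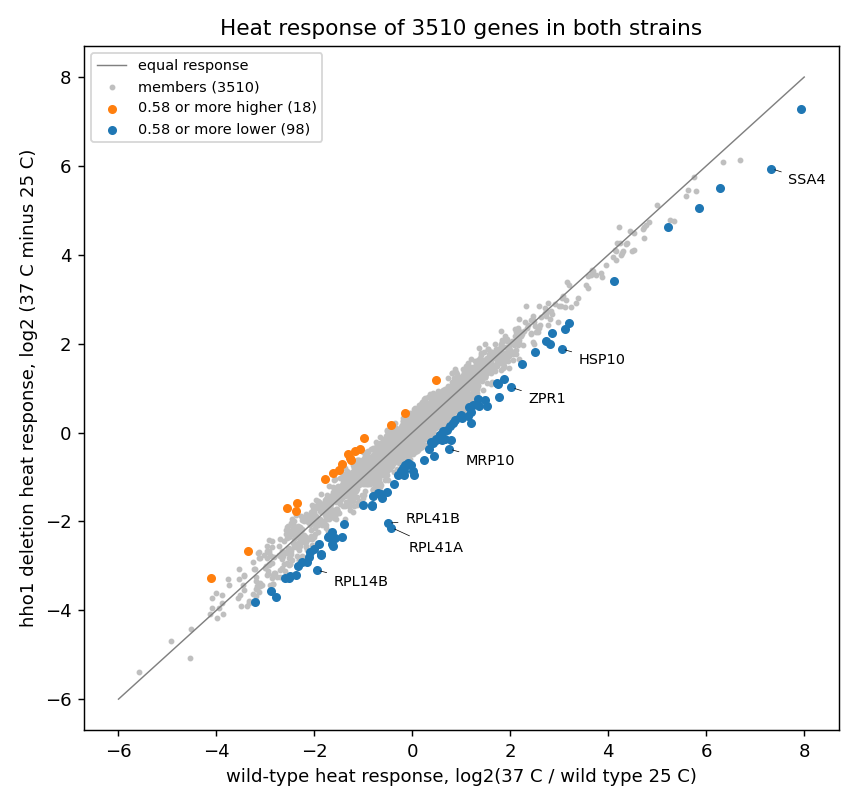
The wild-type heat response (x axis, log2) is plotted against that of the hho1 deletion strain (y axis, log2) for the 3510 genes, each point the mean over a gene's spots on 1 array per group; the line marks equal responses. The points follow the line (r = 0.977), 98 genes lie 0.58 or more below it and 18 lie 0.58 or more above it, and the 7 genes lower by 1 or more are named.

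A size rule asked for a mean difference of 1 log2 unit, or 2-fold, with each spot at 0.58 or more in the same direction. No gene was higher in the deletion strain by this rule (0% of 3510), and 7 were lower (0.199%). With a mean of 0.58, or 1.5-fold, and each spot past 0, 18 genes were higher (0.513%) and 98 were lower (2.79%). The heat responses of the 2 tails are given as a description only. Both responses enter the difference by which these genes were chosen, so the selection in part fixes them. Of the 18 higher genes, 15 had negative responses in both strains, so that their repression was shallower in the deletion strain. The 98 lower genes were mixed, with positive responses in both strains for 36, negative in both for 45, and a positive wild-type but negative deletion response for 17. The median response of the lower genes was 0.36 in wild-type cells and -0.45 in the deletion strain, and that of the higher genes -1.37 and -0.66.

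The lowest values belonged to RPL41A and RPL41B, a pair of near-identical genes for the smallest protein of the large ribosomal subunit, whose probes may share signal. RPL41A had log2 ratios over wild type at 25 °C of 0.48 in the deletion strain at 25 °C, -1.66 in the deletion strain at 37 °C and -0.43 in the wild type at 37 °C. Its response was -2.14 in the deletion strain and -0.43 in wild-type cells, a difference of -1.71 ± 0.07 (SD, n = 2 spots). RPL41B had ratios of 0.41, -1.63 and -0.50 in the same order and a difference of -1.55 ± 0.02 (n = 2 spots). The median wild-type response of the 77 measured large-subunit genes was -2.46, and in the deletion strain it was -2.81. Other genes of that subunit also lay far from this median in the wild type, with RPP0 at -0.81 and RPL15B at 1.11; their differences were -0.49 and -0.37. RPL14B, which encodes another protein of the large subunit, had ratios of 0.14, -2.96 and -1.95 and a difference of -1.14 from 1 spot. Its copy RPL14A had a difference of -0.92 ± 0.02 (n = 2 spots), short of the rule.

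The other 4 genes past the rule encode chaperones or proteins outside the cytosolic ribosome. SSA4, an Hsp70 chaperone made almost only under stress, had ratios of 0.01 in the deletion strain at 25 °C, 5.95 in the deletion strain at 37 °C and 7.33 in the wild type at 37 °C, a difference of -1.39 ± 0.06 (n = 2 spots). HSP10, the co-chaperonin of mitochondrial Hsp60, had ratios of -0.32, 1.57 and 3.05 and a difference of -1.17 ± 0.07 (n = 2 spots). Its partner HSP60 had responses of 2.83 in wild-type cells and 2.73 in the deletion strain, a difference of -0.11. MRP10, a small-subunit protein of the mitochondrial ribosome, had ratios of -0.37, -0.74 and 0.75 and a difference of -1.12 ± 0.03 (n = 2 spots). Its response was 0.75 in wild-type cells and -0.37 in the deletion strain. ZPR1, a zinc finger protein that assists the folding of translation elongation factor 1A, had ratios of -0.07, 0.95 and 2.02 and a difference of -1.01 ± 0.01 (n = 2 spots). In both strains SSA4, HSP10 and ZPR1 were induced, by less in the deletion strain.

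The direction of SSA4 depended on how the dyes were combined. Its wild-type 25 °C reference, read in Cy5, had a net signal of 1046 on the deletion array at 25 °C and 6864 on that at 37 °C. These references enter the difference either way, and their part in it was not tested. When each strain's response was taken within 1 dye, the deletion strain in Cy3 and the wild type in Cy5, SSA4 had responses of 8.85 in the deletion strain and 6.98 in wild-type cells, a difference of 1.88. The other 6 genes stayed below 0 in that comparison, with -0.84 for RPL41A, -0.73 for RPL41B, -0.34 for HSP10, -0.59 for RPL14B, -0.30 for MRP10 and -0.90 for ZPR1. None of the 7 was lower by the size rule there, and SSA4 lay on the higher side. The correlation of the difference with its same-dye version over the 3510 genes was 0.575.

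**Figure D2:**
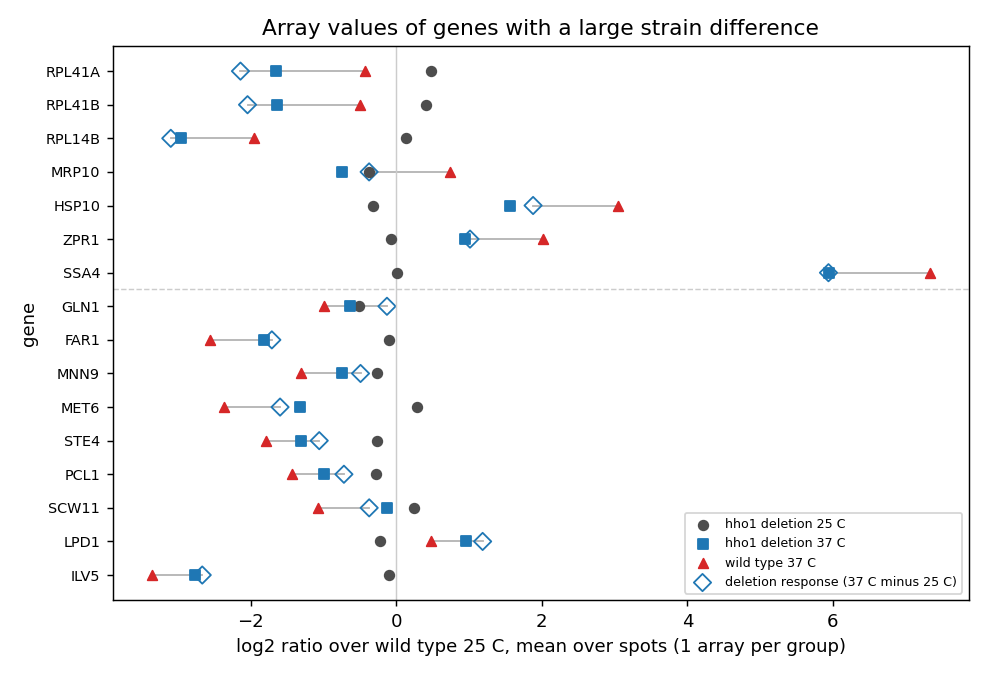
Log2 ratios over wild type at 25 °C (x axis) on the 3 arrays for the 7 genes lower by 1 or more (above the dashed line) and 9 of the 18 genes higher by 0.58 or more (below it), with the deletion response as open diamonds; points are means over 1 or 2 spots and there is 1 array per group. The diamond lies left of the wild-type triangle for the 7 lower genes and right of it for the 9 higher ones, and for RPL41A the gap runs from -0.43 to -2.14.

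Many of the lower genes encoded ribosomal proteins, and 73 of the 98 did not. Of 77 large-subunit genes that met the signal minimum, of 81 on the array, 16 were lower by 0.58 and 12 lay above 0, with a median difference of -0.35. Of 54 small-subunit genes, of 57 on the array, 9 were lower by 0.58 and 10 lay above 0, with a median of -0.32. None of the 131 was higher by 0.58. Of these genes, 19.1% were lower by 0.58, beside 2.79% of all 3510. Among all members of 78 to 537 bases, 54 of 347 were lower by 0.58. Median coding lengths, introns included, were 795 bases for the large-subunit and 768 for the small-subunit genes. All members of 741 to 930 bases had a median difference of 0.02. Within the 131 genes, the difference correlated with log2 coding length with r = 0.53. The part of length was not tested. RPS28A, in the small subunit, had responses of -1.63 in wild-type cells and -2.55 in the deletion strain, a difference of -0.93 ± 0.01 (n = 2 spots). RPS12, also in the small subunit, had a difference of -0.79 ± 0.16 (n = 2 spots).

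Most ribosomal proteins are encoded by 2 gene copies, and over 53 measured pairs the copies' differences correlated with r = 0.701, with a median gap of 0.20. The widest gap was that of RPS14A, with a difference of -0.88, and RPS14B, with 0.14. Copies are often near-identical in sequence, so the array may not separate them. In the same-dye comparison the median of the 131 genes was -0.07 and 80 lay below 0, against 109 below 0 in the ratios within arrays.

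Genes for the assembly of ribosomes were nearly all below the signal minimum. Of 168 such genes measured, 16 met it. Their median difference was 0.06, and none was higher or lower by 0.58. Of the 16, 9 lay above 0, close to the 55.7% of all members. The highest were MAK11 (0.31), LSG1 (0.30) and UTP22 (0.30), all factors needed to build or release ribosomal subunits, and the lowest were NOP10 (-0.56), a small protein of the H/ACA particles that modify ribosomal RNA, and NSR1 (-0.54), a nucleolar protein of small-subunit assembly. The 152 genes below the minimum had a median difference of 0.57, and 146 of them lay above 0. All 152 were below the minimum in a heat-shock channel, and 124 in the heat-shock channels of both strains. Their median wild-type response was -3.44, compared with -1.90 for the 16 above the minimum.

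In ratios within arrays, positive differences past the size rule were found only below the minimum. Among 2362 genes below the minimum but well above background in 1 channel or more per array, 22 were higher by the size rule (0.931%) and 2 were lower (0.0847%), against 0 and 7 of the 3510. Of the 22, 14 belonged to the assembly lists, among them NOG1, YTM1, NOP12 and RPF2. NOG1, a GTPase of large-subunit assembly, had a difference of 1.27 with heat-shock net signals of 30 in the deletion strain and 55 in wild-type cells, and RPA49, a subunit of RNA polymerase I, had a difference of 1.39 with 16 and 33. SAP1, an ATPase of the AAA family, had the highest value, 1.67. Its only channel below the minimum was a wild-type reference, at 92 on the deletion array at 37 °C against 826 in the same dye on the deletion array at 25 °C. HSP12, a stress-induced membrane protein, had a difference of 1.02 with reference signals of 20 to 79.

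Among assembly genes, the median difference was 0.64 where the dimmest channel was under 50, 0.51 from 50 to 100, 0.39 from 100 to 200, 0.08 from 200 to 500 and -0.22 at 500 or more, over 88, 38, 26, 9 and 7 genes. Other genes with responses of -2 or less in both strains had medians of 0.62, 0.35, 0.26, 0.17 and -0.18 in the same classes, over 32, 24, 28, 46 and 136 genes. Over all genes well above background by the same criterion the medians were -0.01, 0.08, 0.07, 0.06 and 0.01. The classes were chosen after the values had been seen. What part the dim signal has in the higher values of assembly genes was not tested beyond this.

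**Figure D3:**
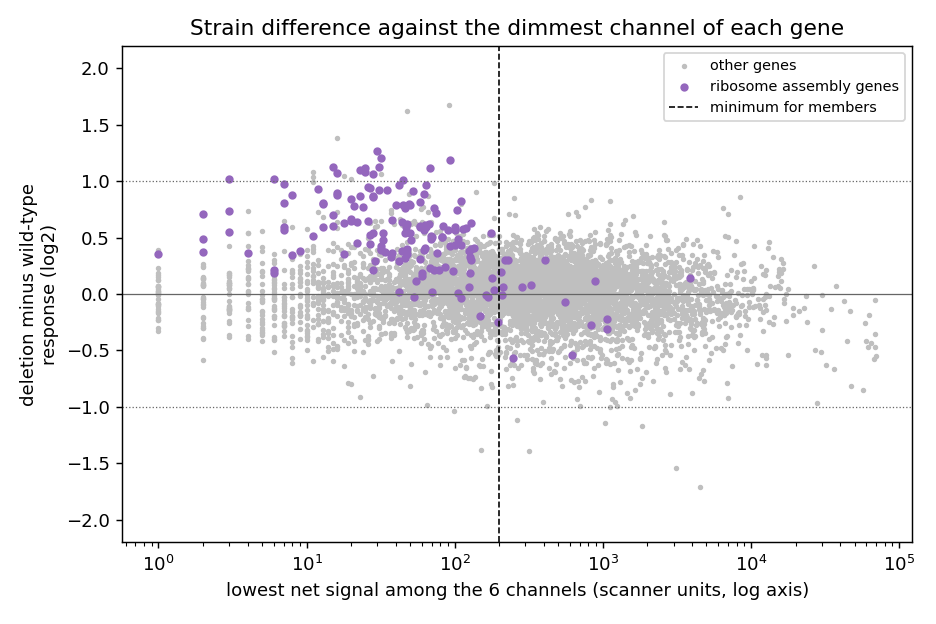
The difference of responses (y axis, log2) is plotted against each gene's lowest net signal among the 6 channels (x axis, scanner units, log scale), with 168 ribosome assembly genes in colour, the minimum of 200 as a dashed line and differences of 1 and -1 as dotted lines; 453 genes with a lowest net signal under 1 are not drawn. To the right of the dashed line no gene is higher by 1 and the 16 assembly genes have a median of 0.06, and to its left assembly genes have a median of 0.57.

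Several heat-induced chaperone genes had a lower response in the deletion strain. Of 29 cytosolic chaperone and co-chaperone genes above the minimum, 7 were lower by 0.58 and none was higher, beside 2.79% lower and 0.513% higher of all 3510, and the median was -0.23. HSP26, a small heat shock protein that holds unfolded proteins, had responses of 7.94 in wild-type cells and 7.28 in the deletion strain, a difference of -0.67. HSP42, the other main small heat shock protein, had 6.28 and 5.51, a difference of -0.77 from 1 spot. APJ1, an Hsp40-type co-chaperone, had 2.81 and 1.99, a difference of -0.82 ± 0.03 (n = 2 spots), and FES1, a nucleotide exchange factor of Hsp70, had 3.12 and 2.33, a difference of -0.79 ± 0.05 (n = 2 spots). SSB1 and SSB2, constitutive Hsp70 chaperones that act on chains leaving the ribosome, had differences of 0.01 and 0.04.

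The lower chaperone values did not all keep their sign. In the same-dye comparison the list's median was 0.18, with HSP26 at 1.42 and HSP42 at 0.29, whereas APJ1 stayed at -1.03 and FES1 at -0.45. Over all genes with a mean response of 4 or more, 35 in number, the median difference was -0.22 within arrays and 0.06 in the same-dye comparison. Genes of the general stress programme had a median of -0.09 over 48 members of 83, with 5 lower by 0.58, beside 2.79% of all genes, and none higher. In the same-dye comparison this median was 0.09 and 32 of the 48 lay above 0. SOD1, the cytosolic superoxide dismutase, had responses of 1.76 in wild-type cells and 0.80 in the deletion strain, a difference of -0.96 ± 0.08 (n = 2 spots), and -0.14 in the same-dye comparison. UBI4, the stress-induced polyubiquitin gene, had a difference of -0.80 that became 0.49 there. The 15 measured genes of trehalose and glycogen, reserve carbohydrates built up in heat, had a median of -0.14, which became 0.26.

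Of 25 glycolytic and fermentation genes, 3 lay above 0 and 2 were lower by 0.58, beside 2.79% of all members, with a median of -0.18. The lower ones were TDH3 (-0.81 ± 0.05, n = 2 spots) and TDH2 (-0.67), near-identical genes for glyceraldehyde-3-phosphate dehydrogenase, with responses of 0.66 and 0.53 in wild-type cells and -0.16 and -0.14 in the deletion strain. The list's median was 0.11 in the same-dye comparison. Respiratory and citric acid cycle genes had a median of -0.02 over 43 members, with 3 lower by 0.58 and 1 higher, beside 2.79% and 0.513% of all members. Those lower were COX7 (-0.99) and COX8 (-0.59), small subunits of cytochrome c oxidase, and QCR8 (-0.77), a subunit of the cytochrome bc1 complex. Each of these 3 values came from 1 spot. The higher one was LPD1 (0.71 ± 0.02, n = 2 spots), dihydrolipoamide dehydrogenase, which had ratios of -0.22 and 0.96 in the deletion strain at 25 °C and 37 °C and 0.48 in the wild type at 37 °C. In the same-dye comparison COX7 had -0.81, COX8 -0.61, QCR8 -0.74 and LPD1 0.59.

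In the lists of histones and of chromatin remodelling and silencing genes, no gene passed 0.58. The 9 measured core and variant histone genes had a median of -0.27. Their median coding length was 399 bases, and all 347 members of 78 to 537 bases had a median of -0.26. The H2A genes HTA1 and HTA2 had -0.47 and -0.46, the H2B genes HTB1 and HTB2 had -0.30 and -0.27, and the H3 gene HHT1 had 0.31 where its copy HHT2 had 0.01. The median of the histone list was -0.04 at its highest over the alternative settings. The 49 genes of chromatin remodelling and silencing had a median of 0.07, with values from -0.48 for NHP6B, a high mobility group protein, to 0.47 for MSI1, a subunit of the chromatin assembly factor CAF-1. SAS5, a subunit of a histone acetyltransferase outside these lists, had a difference of -0.62. Among genes near HHO1 on its chromosome, within 3 places on either side, the members TBF1, TAF14 and KAP120 had 0.42, 0.24 and 0.38, and SPO19, NAN1 and SPC29, below the signal minimum, had 0.14, 0.55 and 0.01.

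Position along chromosomes gave little separation. The 225 genes among the 15 nearest to each chromosome end had a median difference of -0.02, compared with 0.04 for the others, with none higher and 6 lower by 0.58, close to the 2.79% over all members. Members of subtelomeric families had a median of -0.17 over 45 genes, 11 of them above 0, and the largest values were -0.39 for PAU18, -0.35 for PAU17 and -0.31 for PAU5, members of a family of near-identical cell wall protein genes. The median coding length of these 45 genes was 495 bases, beside the median of -0.26 for all members of 78 to 537 bases. Neighbouring genes' differences correlated with r = 0.067 over 2150 pairs.

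On the higher side, HO and genes of the daughter-cell programme had the highest list median. The lists were chosen with earlier results of these data known, so this ranking is a description only. HO encodes the endonuclease of mating type switching, and many of the daughter-cell genes act in the separation of cells after division. Of 18 on the array 17 met the minimum, 16 lay above 0, and the median difference was 0.41, beside 0.03 over the 3510. SCW11, a glucanase-like cell wall protein, had ratios of 0.24 in the deletion strain at 25 °C, -0.13 in the deletion strain at 37 °C and -1.08 in the wild type at 37 °C, a difference of 0.71 ± 0.03 (n = 2 spots). DSE1, a daughter-specific protein, had ratios of -0.30, -0.12 and -0.45 and a difference of 0.62 ± 0.11 (n = 2 spots). RME1, a repressor of entry into meiosis, had a difference of 0.55. The exception below 0 was SIC1, an inhibitor of the cyclin-dependent kinase, at -0.21. HO itself was below the minimum, with 32 and 59 in the heat-shock channels, and had a difference of 1.07.

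The median of the daughter-cell list was 0.34 in the same-dye comparison. Set against the median of all members, it was 0.38 higher within arrays and 0.28 to 0.43 higher in the 12 alternative settings. In median centring, where the median of all members was -0.49, the list's own median was below 0. In this list 2 of 17 genes were higher by 0.58, beside 0.513% of all members.

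Pheromone response genes had a median of 0.15 over 30 members of 49, with 3 higher and 1 lower by 0.58, beside 0.513% and 2.79% of all members; the 1 lower gene is close to the overall share. FAR1, which arrests the cell cycle on pheromone, had ratios of -0.10 in the deletion strain at 25 °C, -1.81 in the deletion strain at 37 °C and -2.56 in the wild type at 37 °C, a difference of 0.85 ± 0.13 (n = 2 spots). STE4, the beta subunit of the pheromone receptor's G protein, had ratios of -0.26, -1.31 and -1.79 and a difference of 0.73 ± 0.09 (n = 2 spots). STE2, the alpha-factor receptor, had 0.14, -0.48 and -1.25 and a difference of 0.64 from 1 spot. These 3 genes were repressed in both strains, by less in the deletion strain. The lower member was MFA1, which encodes the mating pheromone a-factor, at -0.75 ± 0.01 (n = 2 spots). PCL1, a G1 cyclin, had ratios of -0.27, -0.99 and -1.43 and a difference of 0.71 ± 0.02 (n = 2 spots).

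Of the other higher genes, GLN1, glutamine synthetase, had the highest difference, 0.86 from 1 spot, with ratios of -0.51 in the deletion strain at 25 °C, -0.63 in the deletion strain at 37 °C and -0.99 in the wild type at 37 °C. Its value thus came in large part from a low ratio at 25 °C. MNN9, a mannosyltransferase of the Golgi, had a difference of 0.82 from 1 spot. MET6, methionine synthase, had 0.77, and ILV5, of branched-chain amino acid synthesis, had 0.69. FCY2, a purine and cytosine permease named after its value was seen, had ratios of 0.25, -3.02 and -4.11 and a difference of 0.84 ± 0.03 (n = 2 spots). In the same-dye comparison all 18 higher genes stayed above 0 and 9 reached 0.58, with FAR1 at 0.75 and FCY2 at 0.67.

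Aminoacyl-tRNA synthetases, which charge tRNAs, had a median of 0.20 over 20 genes, 17 of them above 0, and TYS1 (0.48), for tyrosine, and ALA1 (0.42), for alanine, were the highest. Translation factors had a median of 0.15 over 39 genes, with NIP1, a subunit of initiation factor 3, at 0.50, and a median of -0.06 in the authors' deposited table. Set against the median of all members, the translation factors were 0.11 higher within arrays, and the sign turned in the deposited table (-0.06) and with median centring (-0.06). In neither list did a gene pass 0.58. In the same-dye comparison, the synthetases' median differed from that of all members by 0.001. Mitochondrial ribosome genes had a median of 0.10 over 60 members, with MRP13 highest at 0.54. MRP10 and MRPL37 (-0.59) were lower by 0.58, close to the 2.79% of all members. Set against the median of all members, this list was 0.067 higher within arrays and 0.003 higher in the same-dye comparison.

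**Figure D4:**
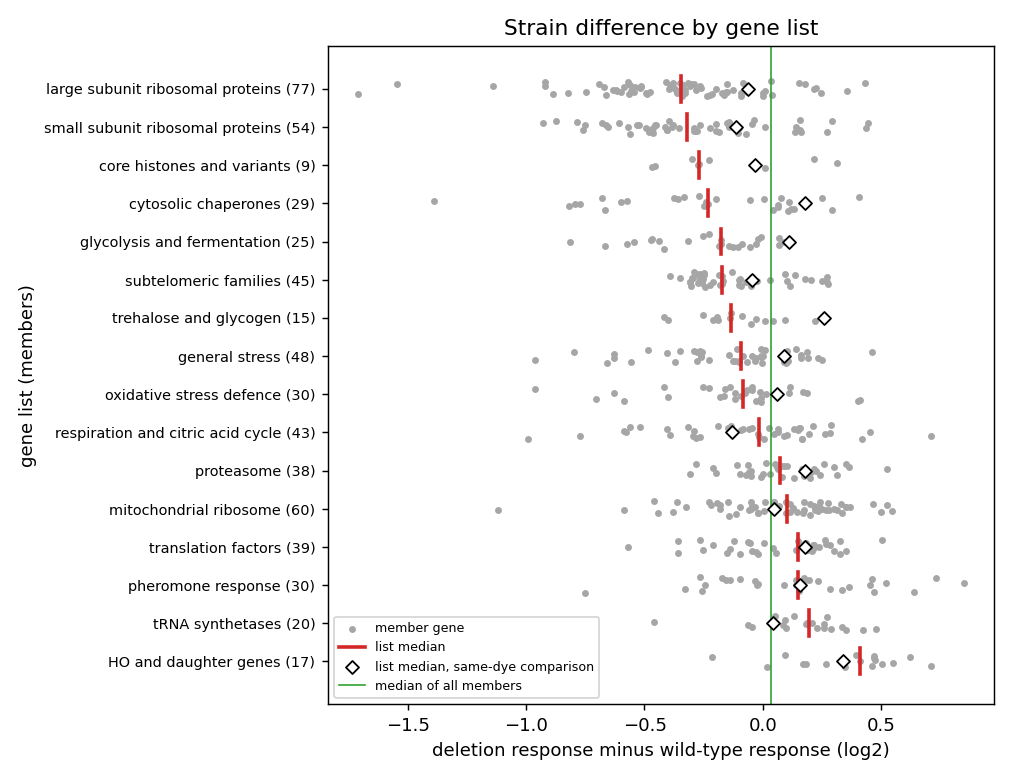
Differences of responses (x axis, log2) for the genes above the signal minimum in 16 gene lists (y axis, number of genes in brackets), with the list median in red, the list median of the same-dye comparison as an open diamond, and the median of the 3510 genes as a vertical line. Ribosomal protein lists lie to the left (-0.35 and -0.32) and the daughter-cell list to the right (0.41), and the diamond crosses 0 for the cytosolic chaperones (-0.23 to 0.18).

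The lower tail was marked by short genes. The median coding length, introns included, was 465 bases for the 98 lower genes, 1321.5 for the 18 higher genes and 1299 for all members. In the shortest of 10 equal classes, 78 to 537 bases, the median difference was -0.26 over 347 genes, and the class held 54 of the 98 lower genes and none of the higher ones. From the fourth class on, above 930 bases, medians lay between 0.04 and 0.09. Without the ribosomal proteins the shortest class had a median of -0.24 over 333 genes, and length and difference had Spearman's rho of 0.21 over 3337 genes, against 0.25 over the 3468 with a length. In the same-dye comparison rho was 0.069 and the median of the shortest class -0.10. Bright genes were also lower, with a median of -0.13 in the brightest class of 10, which was 0.08 in the same-dye comparison. Whether length or signal has a part in the lower values was not tested.

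**Figure D5:**
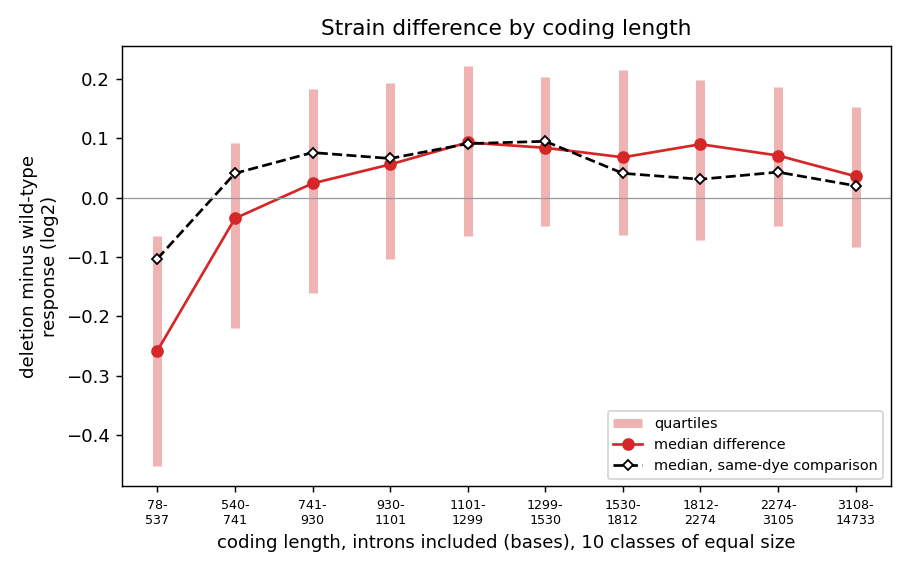
Median difference of responses (y axis, log2) in 10 classes of coding length (x axis, bases) for ratios within arrays (red, with quartiles as bars) and for the same-dye comparison (open diamonds), with nearly equal numbers of genes per class. The shortest class is lowest in both, at -0.26 and -0.10, and classes above 930 bases lie between 0.02 and 0.10.

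Some short lower genes are named here after their values were seen. OST4, OST5 and OST2 had differences of -0.99 (1 spot), -0.78 and -0.63. They are small subunits of the oligosaccharyltransferase that adds sugar chains to proteins in the endoplasmic reticulum. Other subunits of that complex had higher values, with 0.34 for OST1, 0.18 for OST6, 0.07 for WBP1, 0.02 for OST3, -0.16 for STT3 and -0.21 for SWP1. ATP19, a small protein of the mitochondrial ATP synthase, had -0.96 from 1 spot, with responses of 0.44 in wild-type cells and -0.52 in the deletion strain. OLI1, a subunit of the same enzyme encoded in mitochondrial DNA, had -0.83 from 1 spot. Its responses were -0.82 in wild-type cells and -1.65 in the deletion strain. Its ratio of 1.06 in the deletion strain at 25 °C was larger in size than the difference itself. Subunits of the ATP synthase on the respiratory list ranged from -0.56 for ATP15 to 0.29 for ATP3. Of the 98 lower genes, 69 had a ratio above 0 in the deletion strain at 25 °C, or 70.4%, beside 51.3% of all members; the ratio at 25 °C enters the difference by which they were chosen.

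Of the 98 lower genes, 91 stayed below 0 in the same-dye comparison and 23 reached -0.58 there. These 23 also reached -0.58 with the scanner's processed signals, the authors' deposited table and median centring. Those settings use the same ratios within arrays and hardly separate the 98 genes. Of the 98, 93 reached -0.58 with the scanner's signals, and all 98 did in the deposited table and with median centring. They include RPL41A, RPL41B, RPL14B, ZPR1, COX7, COX8, QCR8, ATP19, OLI1, APJ1, and LST8, a subunit of the TOR kinase complexes. LST8 had responses of 3.20 in wild-type cells and 2.46 in the deletion strain, a difference of -0.74 from 1 spot.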

How the data were processed

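The scanner files of 3 arrays and a value table were used. Per the file headers, the deposited spot intensity values (mean pixel brightness and local background, both channels) came from Agilent Feature Extraction 9.1.1.1, as did log10 ratios in the same deposited files, which only served to set directions. The authors' deposited table holds log2 ratios for which the submitters' processing notes name limma; further steps were not given in the sources used here. Set against the scanner's ratios over spots well above background in both channels, it correlated with r = 0.951, 0.993 and 0.993, which set its direction as sample over wild type at 25 °C; its column medians were -0.007, -0.026 and -0.063, and its centring stays unknown. Labels give the dyes.

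Intensities were corrected with normexp (offset 50, which draws dim ratios towards 0) and normalised by loess within arrays in limma 3.58.1 (R 4.3.3), with 526 control spots and flagged spots at weight 0. Of 10263 gene spots 31 were flagged and none was saturated. Spots of a gene were averaged, and 1271 members had 1 spot and 2239 had 2. A value printed without an SD may rest on 1 spot. Precision is limited by 1 array per group, so no test was run. The calculation was tested on simulated data. The size rule called 49 of 50 genes given a difference of 1.5, 50 of 50 given -1.5, and 2 of 3307 given none. The simulation held no dye bias of a gene common to the arrays and no slide effect, so it cannot show their part in the values.

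Ratios within arrays cancel a gene's dye bias in the deletion response but not in the wild-type response. The same-dye comparison took single channels after loess and Aquantile: the deletion strain at 37 °C minus 25 °C in Cy3, and the wild type at 37 °C minus the mean of both wild-type 25 °C references in Cy5. It compares channels of different arrays.

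The members and the 40 gene lists were chosen with earlier results of these data known. Named genes were those past the size rule, up to 3 per list with the largest differences, their near-identical copies, HHO1 and the genes nearest the minimum; others are marked or stand as members of a group described. Names and coding lengths came from the R64 gene table, matched for 5756 genes; 98.8% of members had a length. No sequence or coordinate is reported, and promoter motifs were not analysed here.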

Additional observations from a re-analysis of the deposited data

How the results depend on the processing

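With 1 array per group, no setting has a replicate check. No paired analysis was possible because no test was run and each group had 1 array. Beside 0 genes higher and 7 lower by the size rule, the same-dye comparison gave 4 higher and 2 lower, and subtracting the ratio at 25 °C once more as a dye term gave 6 higher and 33 lower. The looser mean of 0.58 gave 18 higher and 98 lower, which became 30 and 44 in the same-dye comparison, 127 and 207 with the dye term, 0 and 1297 with median centring, 23 and 54 without background correction, 22 and 171 in the deposited table, and 28 and 119 with a minimum of 100. Genes lower by the rule numbered 11 with normexp without an offset, 24 in the deposited table and 235 with median centring, where the median of all members was -0.49. The other 17 counts were within 1.5 times of these. Among calls past 0.58, 15.5% were higher, compared with 40.5% for single dyes, 38.0% with the dye term, 29.9% without background correction and 0% with median centring. The median of the cytosolic chaperones reversed to 0.177 and SSA4 to 1.875 in the same-dye comparison, and the cause was not tested. The median of HO and the daughter-cell genes reversed to -0.203 with median centring, where it stayed 0.283 above the median of all members. Over all lists and settings, 387 medians stayed within 0.1 of the reported one, 91 moved further, some across 0, and 2 with a median of 0.2 or more in size reversed. For named genes, 894 values stayed within the SD over spots, or 0.1 with 1 spot, 495 moved further and 1 that had passed the size rule reversed. Dim channels limit which genes can be compared, since 2741 genes fell below the minimum in at least 1 channel. Not all of these were dim through heat, since 4084 genes reached the minimum in the deletion sample's channel at 25 °C. Repressed genes were also limited, with 152 of 168 assembly genes below the minimum in a heat-shock channel.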
